A study of Mus musculus with 12 samples.

Results

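The oligoadenylate synthetase family and the RIG-I-like RNA sensors were followed through total RNA-seq of bone marrow-derived macrophages (BMDMs), mouse macrophages grown from bone marrow in medium conditioned by L929 cells. The 9 genes were taken as a list of symbols, Oas1a, Oas1g, Oas2, Oas3, Oasl1, Oasl2, Ifih1, Ddx58 and Dhx58, by family and function rather than by a threshold on measured values, though with earlier results of these data known. All 9 were matched among the 48526 genes of the count table and all 9 were among the 15523 genes with enough counts to test. Homozygous HSS9 KO mice (KO), which lack a stretch of DNA upstream of the cytokine gene Tnf, gave one set of cultures, and wild-type (WT) mice gave the other, all young adult males per the methods of the study. Each genotype was left untreated in PBS (UT) or stimulated through 6 hr with lipopolysaccharide (LPS), a component of Gram-negative bacteria that triggers an inflammatory response. Genotype and treatment together made 4 groups (WT UT, WT LPS, KO UT, KO LPS) of 3 libraries, 12 in all. The KO is a germline deletion, so all cells of a KO culture carry it. Littermate controls are named in the labels, but the methods describe purchased C57BL/6 mice, so a shared genetic background is not assured. The LPS dose of these cultures is not given in the sources used here.

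Oligoadenylate synthetases bind double-stranded RNA and then make short chains of adenylate, 2-5A, which act as a second messenger of antiviral defence. Oasl1 and Oasl2 encode synthetase-like proteins with an added ubiquitin-like part, and Oasl1 has no synthetase activity and is known to hold back translation of Irf7. Ifih1 encodes MDA5, a sensor of long double-stranded RNA, and Ddx58 (also Rigi) encodes RIG-I, a sensor of RNA with a triphosphate end. Both signal through the mitochondrial adaptor Mavs to induce type I interferon. Dhx58 encodes LGP2, a relative of both that lacks their signalling part and modulates them. All of these genes are known to be induced by interferon, and macrophages given LPS make interferon beta.

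The promoters with the core letters of an interferon-stimulated response element are shown first, since these letters are a sequence feature that the choice of genes did not use. The motif searched, on both strands, was GAAA followed by 2 bases of any kind and a second GAAA, in 300 bases of RefSeq sequence (GRCm38.p6) that ran from 250 bases before to 50 after each gene start. It was present in 1126 of 32817 promoters, or 3.43%. Of the 7 members with a promoter sequence in the table, 5 held it (Oas1a, Oas1g, Oas3, Ifih1 and Ddx58), and Oasl1 and Oasl2 had no match in this window. Oas2 and Dhx58 were not in the promoter table. The lines below give the 100 bases before the start for Oas1a, Oas1g and Oas3, and 30 bases around the match for Ifih1 and Ddx58, 5′ to 3′ on the strand of the gene, with the matches in capitals.
Oas1a (chr5:120907526-120907625, minus strand): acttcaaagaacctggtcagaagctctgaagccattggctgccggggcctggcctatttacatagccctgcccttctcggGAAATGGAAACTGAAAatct
Oas1g (chr5:120887614-120887713, minus strand): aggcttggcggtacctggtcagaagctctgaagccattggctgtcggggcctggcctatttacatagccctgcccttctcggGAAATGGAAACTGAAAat
Oas3 (chr5:120777660-120777759, minus strand): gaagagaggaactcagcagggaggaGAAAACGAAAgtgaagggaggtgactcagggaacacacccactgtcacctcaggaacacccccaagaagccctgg
Ifih1 (chr2:62646206-62646235, minus strand): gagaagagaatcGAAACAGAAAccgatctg
Ddx58 (chr4:40239804-40239833, minus strand): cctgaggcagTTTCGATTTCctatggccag
Oas1a and Oas1g each had 2 matches that overlapped each other, from base -20 to -5 before the start in Oas1a and from -18 to -3 in Oas1g. These 2 promoters were identical at 261 of 294 aligned bases, or 88.8%. The Oas3 match lay at bases -75 to -66. The Ifih1 match lay after the start, at bases 33 to 42, and the Ddx58 match lay at bases 3 to 12 and read in capitals as the reverse complement of the motif. The match is a description of letters and no binding was measured.

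Total counts ranged from 26154533 to 36423921 per library. Levels are given as CPM (counts scaled to the TMM-adjusted library size), and a gene rose or fell when its edgeR adjusted p over all 15523 genes was below 0.05. A gene was called when, in addition, its absolute log2 fold change (log2FC) was above 1, as in the criteria of the study. The deletion lies outside the genes counted, so Tnf is its readout, and Tnf stood in KO at 63.3% of WT without LPS (log2FC -0.66, adjusted p by edgeR 1.29e-06) and at 48.6% after LPS (log2FC -1.04, adjusted p by edgeR 2.76e-10). The 7 macrophage markers were detected in all groups, with a summed level of 28398 to 29435 CPM in WT UT, 32580 to 33679 CPM in KO UT, 24434 to 25939 CPM in WT LPS and 27051 to 28719 CPM in KO LPS. Most of this sum was Lyz2, with means of 23453, 27341, 18507 and 20290 CPM in these groups, so the sum mainly follows 1 gene. Csf1r, unlike Lyz2, was lower in KO UT (mean 2242 CPM) than in WT UT (2448 CPM). The 3 B cell markers and the 3 T cell markers summed to at most 0.15 CPM in any library. The 2 natural killer cell markers summed to at most 0.362 CPM, the 2 plasmacytoid dendritic cell markers to at most 4.39 CPM and the 4 stromal cell markers to at most 5.9 CPM. The last 2 sums overlapped between genotypes in UT but not after LPS. The stromal sum was 1.27 to 3.21 CPM in WT LPS and 4.69 to 5.9 CPM in KO LPS. The plasmacytoid sum was 2.12 to 2.78 CPM in WT LPS and 2.99 to 4.39 CPM in KO LPS. Counts on small structured RNAs took 4.3 to 4.48% of counts in WT UT, 8.04 to 9.14% in KO UT, 4.97 to 7.71% in WT LPS and 4.33 to 4.43% in KO LPS.

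The first comparison asked how KO and WT differ in resting cells. All 9 genes were lower in KO UT than in WT UT, from 84.8% of the WT level for Oas1a to 45.1% for Oasl1. With the edgeR test 9 of 9 fell, against 9.69% of all genes tested, with adjusted p from 2.86e-11 to 0.00196. Their median log2 fold change was -0.66 and that of all genes tested was 0.00. Only Oasl1 was past the fold threshold and so called, 1 of 9, where 0.799% of all genes were called lower. The summed level of the 9 genes went from 1068 ± 7.34 CPM (n = 3, SD) in WT UT to 676.5 ± 16.0 CPM (n = 3, SD) in KO UT, 63.4% of WT. In bulk RNA, fewer cells that express a gene and less RNA of it per cell cannot be told apart.

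Oas2 and Oas3 encode the larger synthetases, with repeated synthetase units. Oas2 (ENSMUSG00000032690.16, chromosome 5, 120730333 to 120749853, protein coding) was at 156.7, 161.7 and 158.5 CPM in the WT UT libraries and at 94.8, 92.7 and 89.3 CPM in the KO UT libraries (log2FC -0.79, SE 0.0557, adjusted p by edgeR 2.37e-09). Oas3 (ENSMUSG00000032661.9, chromosome 5, 120753098 to 120777661, protein coding) was at 191.9, 182.7 and 191.5 CPM in WT and at 112.6, 103.2 and 103.1 CPM in KO (log2FC -0.83, SE 0.0618, adjusted p by edgeR 4.97e-09). Neither gene had a KO library that reached the lowest WT library. Oas1a and Oas1g encode small synthetases. Oas1a (ENSMUSG00000052776.10, chromosome 5, 120896256 to 120907521, protein coding) was at 139.5, 136.1 and 137.0 CPM in WT and at 117.1, 116.2 and 116.5 CPM in KO (log2FC -0.24, SE 0.053, adjusted p by edgeR 0.00196). Oas1g (ENSMUSG00000066861.14, chromosome 5, 120876142 to 120887613, protein coding) was at 54.1, 50.3 and 51.1 CPM in WT and at 38.7, 38.5 and 38.0 CPM in KO (log2FC -0.43, SE 0.0606, adjusted p by edgeR 1.79e-05). In both genes the libraries of the groups did not overlap. The changes of the 4 genes were not tested against each other, and their order moved when the share of small structured RNAs was a covariate (log2FC -1.06 for Oas2, -0.61 for Oas3, -0.19 for Oas1a and -0.76 for Oas1g). Oas1a and Oas1g share reads, since 40.6% of the read-length stretches of the longest Oas1a transcript also occur in Oas1g and 37.9% of those of Oas1g occur in Oas1a. How such reads were counted is not stated, so the split between the pair is uncertain, and their summed counts also fell in KO UT (log2FC -0.29, SE 0.0481, adjusted p by edgeR 0.000118).

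Oasl1 (ENSMUSG00000041827.15, chromosome 5, 114923240 to 114937915, protein coding) was at 22.7, 22.5 and 22.6 CPM in the WT UT libraries and at 10.7, 10.3 and 9.61 CPM in the KO UT libraries (log2FC -1.15, SE 0.0618, adjusted p by edgeR 2.86e-11). The WT libraries had an SD of 0.082 CPM (n = 3), and each KO library was below all of them. Its exons share 38 bases with the antisense gene Gm13822. Oasl2 (ENSMUSG00000029561.17, chromosome 5, 114896936 to 114912234, protein coding), which keeps synthetase activity in mice, was at 207.1, 206.8 and 206.3 CPM in WT and at 116.5, 116.3 and 119.1 CPM in KO (log2FC -0.82, SE 0.0515, adjusted p by edgeR 3.88e-10). Per kilobase of exon, the level of Oasl2 was also above that of Oasl1 in resting cells, at 32.4 against 8.66 CPM per kb in WT UT and 18.4 against 3.91 CPM per kb in KO UT.

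The 3 RNA sensor genes fell together, to between 63.2% and 68.1% of WT, though Ifih1 and Ddx58 did not pass with the structured RNA share as a covariate. Ifih1 (ENSMUSG00000026896.14, chromosome 2, 62595798 to 62646255, protein coding) was at 91.8, 90.4 and 90.4 CPM in WT UT and at 58.6, 55.1 and 58.7 CPM in KO UT (log2FC -0.66, SE 0.0678, adjusted p by edgeR 4.97e-07). Ddx58 (ENSMUSG00000040296.15, chromosome 4, 40203773 to 40239828, protein coding) was at 136.8, 139.6 and 137.5 CPM in WT and at 90.4, 83.1 and 92.3 CPM in KO (log2FC -0.64, SE 0.0601, adjusted p by edgeR 1.59e-07). Dhx58 (ENSMUSG00000017830.15, chromosome 11, 100694884 to 100704271, protein coding) was at 75.6, 72.1 and 69.9 CPM in WT and at 52.9, 44.9 and 50.4 CPM in KO (log2FC -0.55, SE 0.0608, adjusted p by edgeR 1.14e-06). The KO UT libraries of Dhx58 ranged more widely than those of Ifih1, and still no KO library reached a WT library. Its exons share 141 bases with the antisense gene Dhx58os, and whether the counting used strand is not stated.

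**Figure D1:**
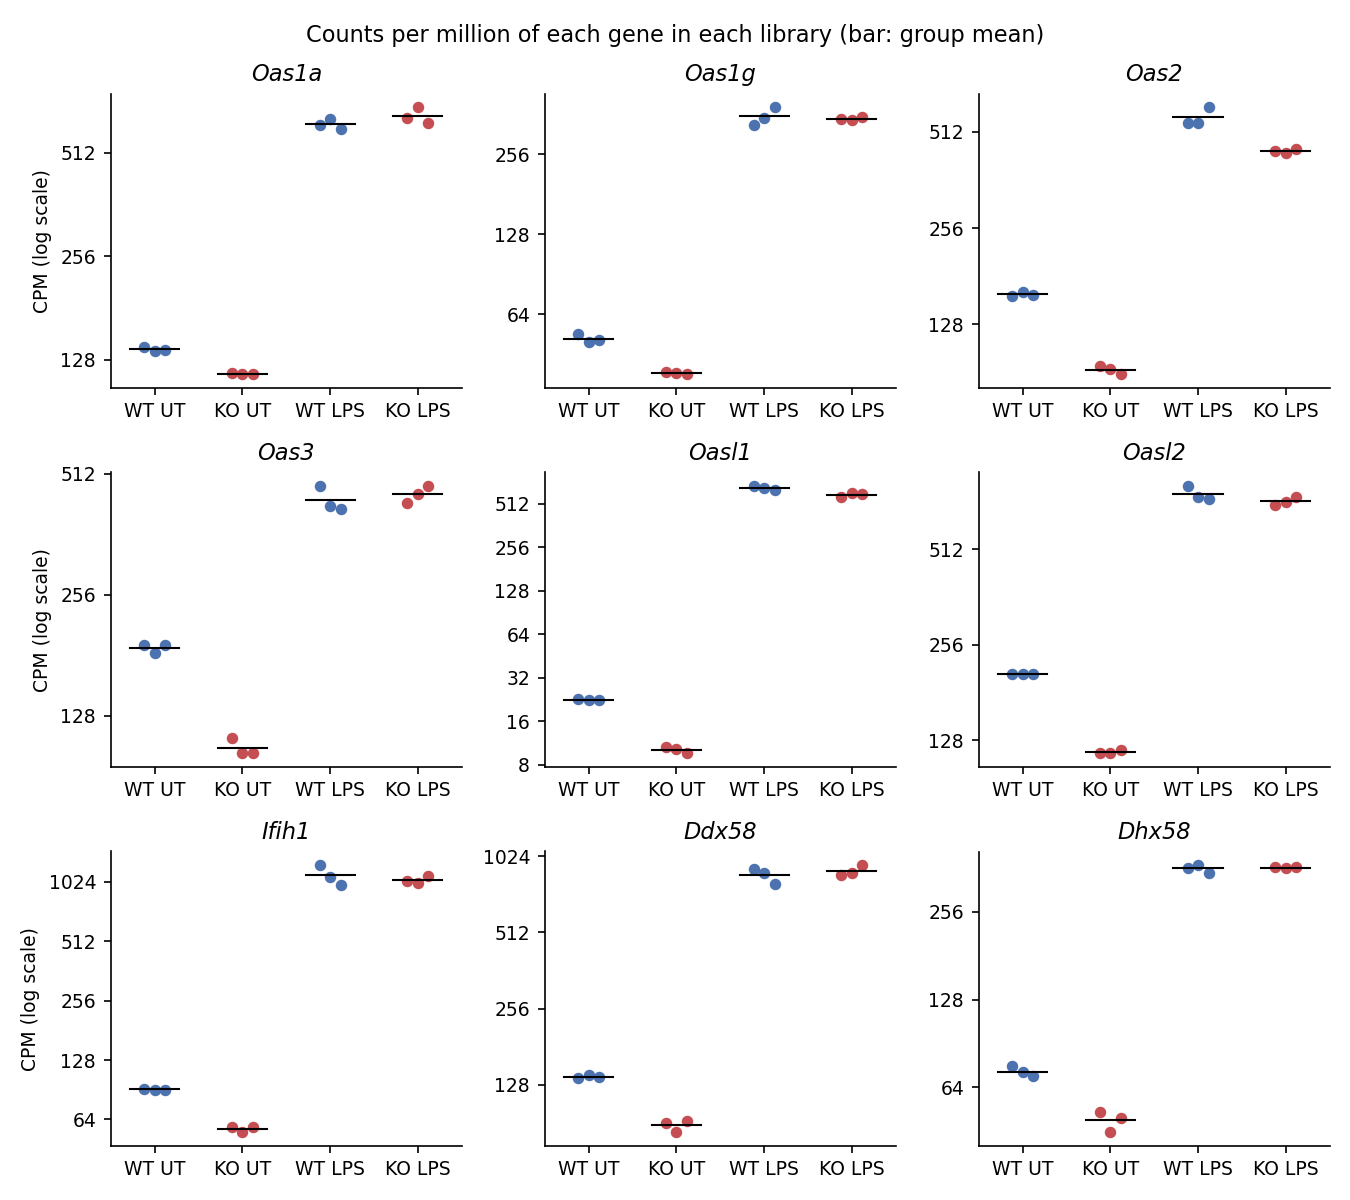
CPM of each of the 9 genes (vertical axis, log scale) in each of the 12 libraries, by group (horizontal axis), with points for libraries and a bar for the mean of 3. The KO UT points lie below the WT UT points in 9 of 9 genes, and after LPS only Oas2 and Oasl1 have KO points all below the WT points.

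For all 9 genes the KO UT libraries lay wholly below the WT UT libraries, an arrangement found downward in 19.1% of genes tested. Within each of the 3 batch numbers of the labels, 9 of 9 genes were lower in the KO UT library, as were 27.3% of all genes tested in all 3, with log2 differences from -1.23 to -0.23. Counts on small structured RNAs separated the same 2 groups by their share, at 8.04 to 9.14% in KO UT against 4.3 to 4.48% in WT UT. A fit with this share as a covariate takes its slope from variation within groups, which was widest in WT LPS (4.97 to 7.71%). The share follows the group, so such a fit separates share and genotype only weakly. In it 812 genes passed between KO UT and WT UT, against 3700 without it. With that share as a covariate, chosen after seeing the data, 6 of 9 genes still fell, where 1.54% of all genes did in that fit, and Oas1a, Ifih1 and Ddx58 did not pass, at log2 fold changes of -0.19, -0.19 and -0.32 (edgeR adjusted p 0.413, 0.402 and 0.104). With the structured RNAs left out of the counts, 9 of 9 fell, against 9.79% of all genes. The summed level of the 5 neutrophil markers was 17.8 to 19.1 CPM in WT UT and 39.3 to 44.4 CPM in KO UT. Nearly all of that sum was S100a8 (mean 7.32 CPM in WT UT and 16.4 in KO UT) and S100a9 (11 and 25.5 CPM), while Ly6g was at 0 in both groups, Mpo was at 0.0509 and 0.393 CPM and Elane at 0.137 and 0.0654 CPM. Their part in the change was not tested.

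The second comparison asked whether the genotypes differ 6 hr after LPS. By then the 9 genes in KO stood at 78.4% to 105.7% of the WT level, and only Oas2 fell, 1 of 9, where 6.54% of all genes fell. None of the 9 was called with edgeR or with DESeq2, where edgeR called 1.25% of all genes in either direction, and 2 of 9 had an unadjusted p below 0.05, as did 28.5% of all genes. The median log2 fold change of the 9 was -0.03 and that of all genes tested was -0.01. The summed level was 5736 ± 230.4 CPM (n = 3, SD) in WT LPS and 5530 ± 129.4 CPM (n = 3, SD) in KO LPS, and the libraries overlapped.

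Oas2 was at 546.3, 546.0 and 613.5 CPM in the WT LPS libraries and at 446.6, 438.6 and 452.2 CPM in the KO LPS libraries (log2FC -0.35, SE 0.0545, adjusted p by edgeR 0.000179). The KO libraries were all below the WT libraries, and the difference kept its sign within each batch number, at -0.29, -0.32 and -0.44. Oasl1 was at 678.2, 651.0 and 631.3 CPM in WT LPS and at 571.3, 601.3 and 599.9 CPM in KO LPS (log2FC -0.15, SE 0.0517, adjusted p by edgeR 0.0644). Its groups also did not overlap, which was so downward for 14.9% of genes, but it did not pass the test. Over 10 alternatives its adjusted p ran from 0.0119 to 0.298, and it passed with upper-quartile scaling, DESeq2, a stricter filter (mean CPM 1 or more), protein-coding genes only and the covariate, and also without WT LPS replicate 3.

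The other 7 genes had log2 fold changes from -0.08 to 0.08 with overlapping libraries. Oas3 was at 477.0, 426.0 and 417.0 CPM in WT LPS and at 431.4, 454.2 and 477.1 CPM in KO LPS (log2FC 0.05, SE 0.0607, adjusted p by edgeR 0.672). Ifih1, the most counted of the sensors, was at 1246, 1087 and 990.2 CPM in WT LPS and at 1030, 1009 and 1099 CPM in KO LPS (log2FC -0.08, SE 0.0651, adjusted p by edgeR 0.437). WT LPS replicate 1 was the highest and WT LPS replicate 3 the lowest of these 6 Ifih1 values, and structured RNAs took 4.97% of counts in the first and 7.71% in the second. With that share as a covariate Ifih1 was lower in KO LPS (log2FC -0.29, adjusted p by edgeR 0.00154). The slope of that fit comes from variation of the share within groups, which was widest in WT LPS. Ddx58 was at 908.8, 882.3 and 793.9 CPM in WT LPS and at 863.1, 880.1 and 947.1 CPM in KO LPS, and the 2 sets overlapped. Dhx58 had nearly equal means of 361.0 ± 11.4 CPM (n = 3, SD) in WT and 363.3 ± 0.793 CPM (n = 3, SD) in KO. Oas1a reached 620.2 ± 21.6 CPM (n = 3, SD) in WT and 655.6 ± 36.9 CPM (n = 3, SD) in KO, Oas1g reached 356.4 ± 27.9 and 348.9 ± 4.5 CPM, and Oasl2 reached 767.2 ± 39.6 and 728.2 ± 22 CPM.

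**Figure D2:**
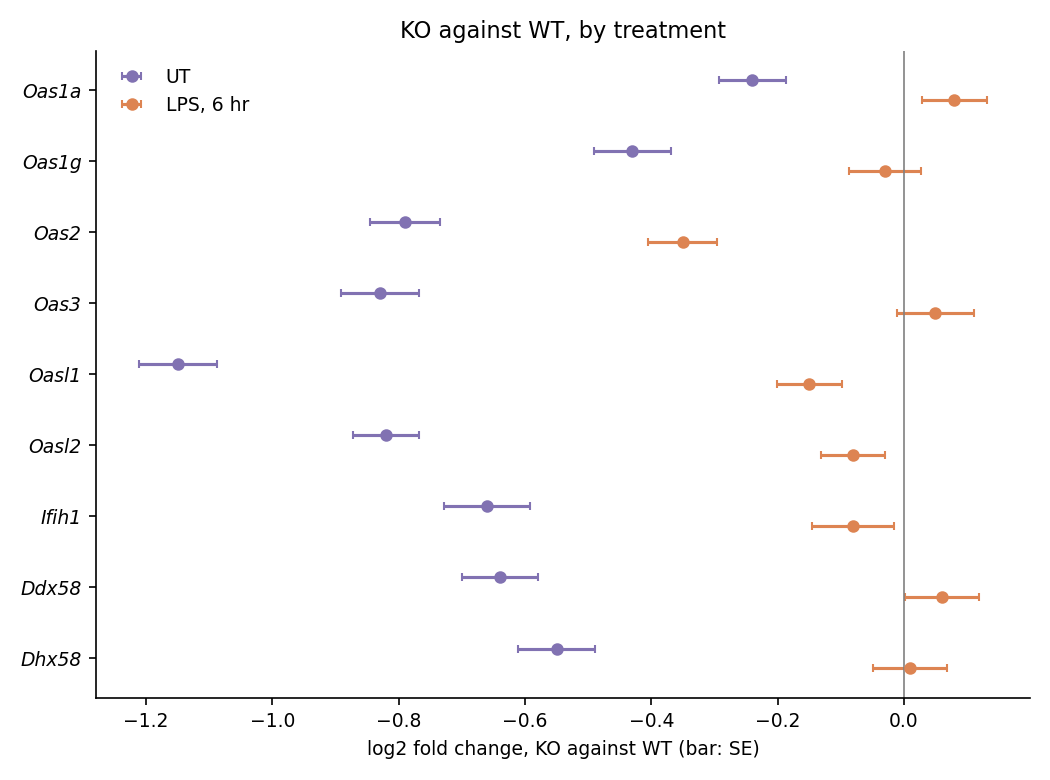
Log2 fold change of KO against WT (horizontal axis, bars are SE) for each gene (vertical axis) without LPS and 6 hr after LPS, 3 libraries per group. The UT points run from -1.15 to -0.24 and the LPS points from -0.35 to 0.08.

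A further question was how LPS itself moved these genes in each genotype. All 9 rose in WT, where 38% of all genes rose, and all 9 rose in KO, where 35.1% did. All 9 were also past the fold threshold in each, as were 19.1% of all genes upward in WT and 17.7% in KO. The median log2 fold change of the 9 was 2.32 in WT and 2.88 in KO, against 0.05 and -0.06 over all genes tested. In all 9 genes each LPS library was above each UT library of its genotype, as for 38.5% of genes in WT and 36.6% in KO. Both LPS comparisons use the libraries of the KO against WT comparisons, so they are not independent of the values above.

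Oasl1 had the widest range of the 9, with a 28.9-fold rise in WT and a 58.0-fold rise in KO (log2 fold changes 4.85 and 5.86). Ifih1 rose 12.2-fold in WT and 18.2-fold in KO, and Ddx58 rose 6.25-fold and 10.1-fold. Dhx58 rose 4.98-fold in WT and 7.35-fold in KO. Among the synthetases Oas1g rose 6.88-fold in WT and 9.09-fold in KO, and the others rose less, with Oas1a at 4.51-fold and 5.62-fold and Oas2 at 3.58-fold and 4.83-fold in WT and KO. Oasl2 rose 3.71-fold in WT and 6.21-fold in KO. Oas3 had the smallest response of the 9 in both genotypes, 2.33-fold in WT and 4.27-fold in KO.

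The difference of the LPS responses, tested as an interaction, was positive in all 9 genes. With edgeR 9 of 9 had an adjusted p below 0.05, from 6.24e-08 to 0.00493, where 7.32% of all genes passed in that direction. The difference on the log2 scale was 1.00 for Oasl1 (SE 0.0806), 0.87 for Oas3 (SE 0.0865), 0.74 for Oasl2 (SE 0.072) and 0.70 for Ddx58 (SE 0.0838). It was 0.58 for Ifih1, 0.56 for Dhx58, 0.43 for Oas2, 0.40 for Oas1g and 0.32 for Oas1a. Oasl1 alone was called in this comparison, where 0.522% of genes were called in that direction, and it lay at the threshold itself. As the levels above show, the genotypes differed in UT for all 9 genes and after LPS for Oas2. With the structured RNA share as a covariate 3 of 9 passed (Oas1g, Oas2 and Oasl1), where 0.535% of all genes passed in that direction in that fit, and the difference for Ifih1 was -0.10 (edgeR adjusted p 0.849).

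**Figure D3:**
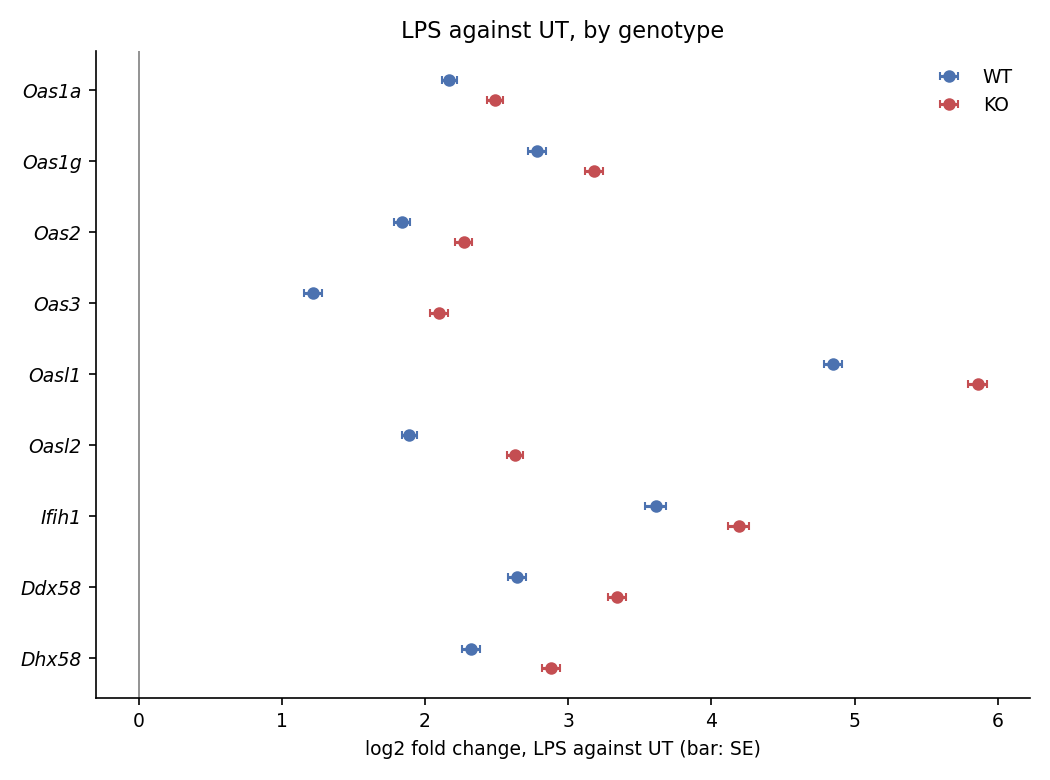
Log2 fold change of LPS against UT (horizontal axis, bars are SE) for each gene (vertical axis) in WT and in KO, 3 libraries per group. The KO point is right of the WT point for 9 of 9 genes, by 0.32 for Oas1a to 1.00 for Oasl1.

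Levels of different genes were compared per kilobase (kb) of exon. In WT UT the order was Oas1a at 73.0 ± 0.945 CPM per kb (n = 3, SD), then Oas2, Oasl2, Oas3, Dhx58, Oas1g, Ddx58, Ifih1 and last Oasl1 at 8.66 ± 0.0315 CPM per kb (n = 3, SD). Dhx58 and Oas1g overlapped in this order and the other neighbours did not. In KO UT Oas1a was again first, at 61.9 ± 0.243 CPM per kb (n = 3, SD), and Oasl1 last, at 3.91 ± 0.207 CPM per kb (n = 3, SD), while Oas1g, Dhx58 and Oas3 overlapped their neighbours. LPS moved Oasl1 from last to the second place in both genotypes, at 250.6 ± 9.03 CPM per kb in WT and 226.6 ± 6.49 CPM per kb in KO (n = 3, SD). Oas1a stayed first, at 329.0 ± 11.5 and 347.8 ± 19.6 CPM per kb (n = 3, SD), and Oas3 became last, at 62.2 ± 4.58 and 64.3 ± 3.23 CPM per kb (n = 3, SD). In WT LPS the libraries of Oas1g, Ifih1, Oas2, Ddx58 and Oasl2 overlapped from each neighbour to the next. The places of the first and last gene were the same with the length of the longest transcript, but Oasl2, whose exons cover 6374 bases and whose longest transcript covers 3123, moved to second without LPS and to the third place after it.

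The other genes of these pathways were read from lists, in the order of the signal. Of the Oas1 paralogs outside the 9, only Oas1b and Oas1c of 6 had enough counts to test. Oas1b fell in KO both in UT (log2FC -0.36, adjusted p by edgeR 0.00576) and after LPS (log2FC -0.37, adjusted p by edgeR 0.00264), whereas Oas1c did not pass in either. In UT Oas1b did not pass without KO UT replicate 2 (log2FC -0.24, adjusted p by edgeR 0.0516) and with the structured RNA covariate (-0.54, 0.0688). With the covariate its change was larger, but its SE was 0.177 in place of 0.0924. Of the 2 genes listed for the 2-5A pathway, neither differed past the threshold in KO UT. After LPS Abce1 was higher in KO (log2FC 0.34, adjusted p by edgeR 0.00411, but 0.14 and 0.323 with the structured RNA covariate), and Pde12, which encodes an enzyme that degrades 2-5A, was at 0.01 (adjusted p by edgeR 0.947).

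Mavs, the adaptor of MDA5 and RIG-I, fell with LPS, in WT by 1.27 and in KO by 0.99 in log2 units (by edgeR, adjusted p 1.74e-11 and 9.07e-10). Its genotypes did not differ past the threshold, at log2 fold changes of -0.10 in UT and 0.18 after LPS (edgeR adjusted p 0.429 and 0.203). Among the 11 RIG-I-like receptor adaptor and regulator genes 3 rose and 2 fell in KO UT, where 14.1% of all genes rose and 9.69% fell. Those that rose were Prkra, which encodes an activator of an RNA-sensing kinase, and the phosphatase subunit genes Ppp1ca and Ppp1cc (log2FC 0.34, 0.27 and 0.25, adjusted p by edgeR 0.000909, 0.00108 and 0.00265). Those that fell were Trim25, a ubiquitin ligase of RIG-I (log2FC -0.37, adjusted p by edgeR 9.9e-06), and Zc3hav1, an antiviral RNA-binding protein gene (log2FC -0.22, adjusted p by edgeR 0.00261). With the structured RNA covariate none of these 5 passed, with Prkra, Ppp1ca, Ppp1cc, Trim25 and Zc3hav1 at log2FC 0.07, 0.32, 0.39, -0.30 and -0.07 (adjusted p by edgeR 0.921, 0.173, 0.102, 0.0992 and 0.796). After LPS 3 rose in KO, where 7.78% of all genes did, and 1 fell, where 6.54% of all genes did. They were Ppp1cc (log2FC 0.35, adjusted p by edgeR 0.000529), the 14-3-3 protein genes Ywhah (0.29, 0.00533) and Ywhae (0.23, 0.0298), and Trim25 (-0.24, 0.00268). Ywhah and Ywhae did not pass with the covariate (log2FC 0.11 and 0.04, adjusted p by edgeR 0.405 and 0.797), nor did Ywhae with the compared groups only (adjusted p by edgeR 0.0756) or without any 1 of WT LPS replicates 2 and 3 and KO LPS replicates 1, 2 and 3. With LPS, Rnf135, the other ubiquitin ligase of RIG-I on the list, rose in both genotypes (log2FC 2.24 in WT and 2.01 in KO, adjusted p by edgeR 3.43e-18 and 2.46e-17). Trim65, a ubiquitin ligase of MDA5, fell in both (log2FC -2 and -2.11, adjusted p by edgeR 2.55e-13 and 1e-13).

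Downstream of Mavs, 8 of 8 genes rose with LPS in each genotype, where 38% of all genes did in WT and 35.1% in KO. The KO count includes Irf3 at a log2FC of 0.17 (adjusted p by edgeR 0.0191), which was at -0.01 with upper-quartile scaling (0.895) and did not pass with no filter (0.0738), with the structured RNA covariate (0.32), or without KO UT replicate 1, KO UT replicate 3 or KO LPS replicate 2 (0.0535, 0.077 and 0.148). In KO UT 2 of 8 fell, against 9.69% of all genes. One was Irf7, the interferon regulatory factor that amplifies interferon production, with 162.6, 159.1 and 162.8 CPM in WT UT and 70.6, 70.1 and 69.3 CPM in KO UT (log2FC -1.21, SE 0.0564, adjusted p by edgeR 3.31e-12). After LPS Irf7 was at 908.5 ± 59.4 CPM (n = 3, SD) in WT and 871.3 ± 43.4 CPM (n = 3, SD) in KO (log2FC -0.06, adjusted p by edgeR 0.505). The other gene was Traf3, with a log2FC of -0.23 (by edgeR, adjusted p 0.00881), which did not pass without WT UT replicate 2, without KO UT replicate 1 or with the covariate (adjusted p 0.0632, 0.0523 and 0.449). Irf3, a factor that signals from Mavs activate, was at log2 fold changes of 0.17 in UT and -0.05 after LPS (edgeR adjusted p 0.0624 and 0.641). In UT Irf3 passed with the filter on mean CPM, with protein-coding genes only, with the compared groups only and without WT LPS replicate 1 or 3 (adjusted p by edgeR 0.024 to 0.0477).

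Of 14 other nucleic acid sensors and effectors, 11 fell and 0 rose in KO UT with edgeR, where 9.69% of all genes fell, with a median log2 fold change of -0.49, and the 3 that did not pass were all below 0 as well. Ifit2 (log2FC -0.99, adjusted p by edgeR 3.68e-09), Ifit1 (-0.88, 8.19e-09) and Ifit3 (-0.80, 2.44e-09), which encode RNA-binding antiviral proteins, and Zbp1 (-0.74, 1.18e-08), a sensor of Z-form nucleic acid, had the lowest adjusted p of the 14. With the structured RNA covariate 6 of 14 fell, where 1.54% of all genes did in that fit, and Ifit2, Ifit1 and Ifit3 were among them, by less, at -0.39, -0.37 and -0.49 (adjusted p by edgeR 0.0119, 0.0211 and 0.00378). After LPS 1 of 14 differed, where 7.78% of all genes were higher and 6.54% lower. It was Tlr8, which was higher in KO (log2FC 0.30, adjusted p by edgeR 0.00812). Its adjusted p was 0.35 with the structured RNA covariate (log2FC 0.13), 0.0504 without WT LPS replicate 2 and 0.0658 without KO LPS replicate 3. With the covariate 0 rose and 6 of 14 fell after LPS, against 4.55% of all genes lower in that fit.

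Of 10 genes of interferon and its signalling, 4 fell and 2 rose in KO UT, where 9.69% of all genes fell and 14.1% rose. Isg15 (log2FC -0.91, adjusted p by edgeR 5.52e-10), Stat2 (-0.74, 9.04e-10), Usp18 (-0.69, 1.24e-08) and Irf9 (-0.24, 0.00307) fell, but Irf9 was at -0.01 with the structured RNA covariate (adjusted p by edgeR 0.975). Stat2 and Irf9 encode parts of the factor that drives interferon-stimulated genes, and Usp18 and Isg15 are among its targets. The genes that rose were the receptor genes Ifnar2 (log2FC 0.34, adjusted p by edgeR 4.77e-05) and Ifnar1 (0.18, 0.00698), neither of which passed with the covariate (log2FC 0.31 and 0.26, adjusted p by edgeR 0.146 and 0.137). After LPS 4 fell and 3 rose, where 6.54% and 7.78% of all genes did, among them Isg15 (log2FC -0.49, adjusted p by edgeR 3.59e-06) and Ifnar1 (0.33, 9.03e-05). With the structured RNA covariate 3 fell, where 4.55% of all genes did in that fit, and only 1 rose, Ifnar1. In the main fit Stat2 was at -0.15 (edgeR adjusted p 0.0426), which did not pass in 11 of the 12 fits that left out 1 library (all but WT LPS replicate 3), with RLE scaling, with no filter, with the compared groups only or with the replicate block (adjusted p 0.0525, 0.255, 0.086 and 0.0805). Socs1, an inhibitor of this signalling, fell as well (log2FC -0.34, adjusted p by edgeR 0.01), but did not pass without WT LPS replicate 2, without WT LPS replicate 3 or with the covariate (0.0644, 0.0521 and 0.557). Without WT LPS replicate 2 neither Stat2 nor Socs1 passed. Ifnb1, the gene for interferon beta, lay at or under a floor of 3 counts without LPS, with WT libraries at 2, 0 and 3 and each KO library at 0. Its LPS counts were 44, 40 and 46 for WT but 26, 23 and 24 for KO, without overlap (log2FC -1.03, adjusted p by edgeR 0.0797). It passed with DESeq2, the compared groups only and protein-coding genes only (adjusted p 0.0335, 0.0261 and 0.0479), and with the covariate its log2FC was -0.74 (adjusted p by edgeR 0.539).

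**Figure D4:**
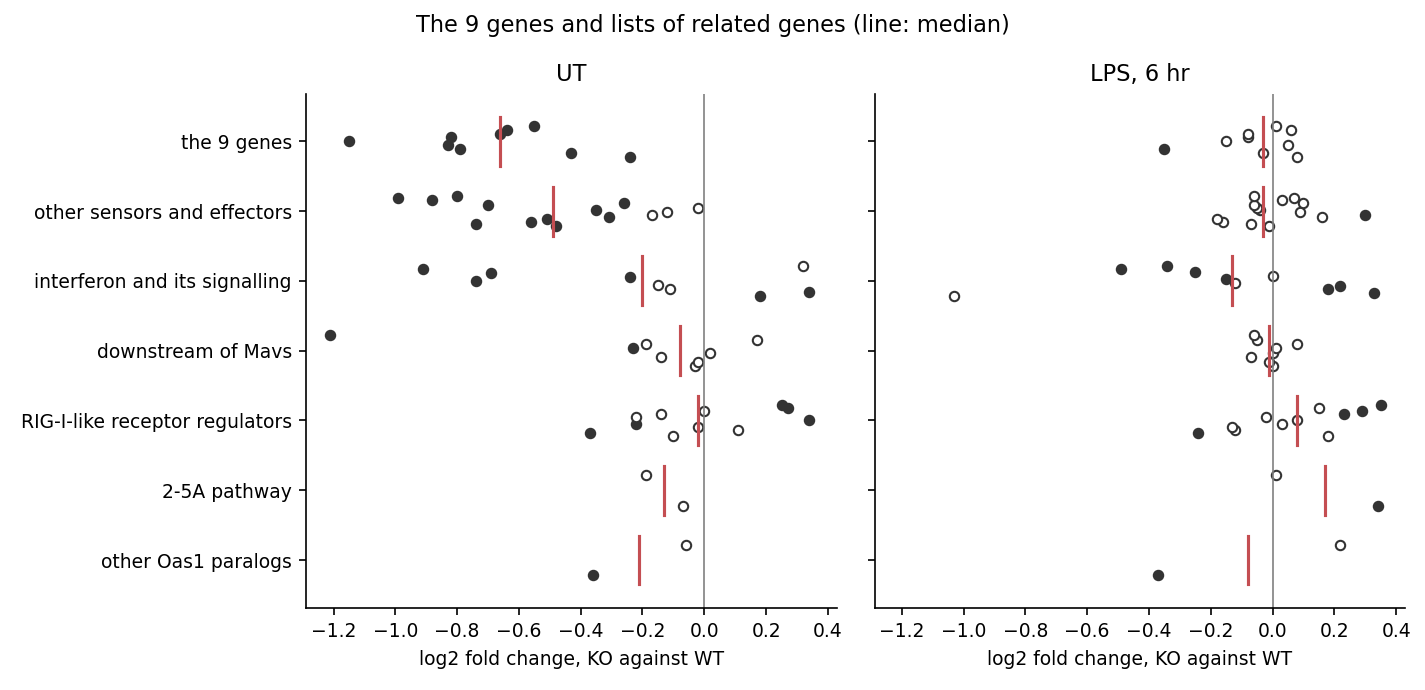
Log2 fold change of KO against WT (horizontal axis) for the 9 genes and 6 lists of related genes (vertical axis) without LPS and 6 hr after LPS, with filled points for an edgeR adjusted p below 0.05 and a line for the list median. Without LPS the medians are -0.66 for the 9 genes and -0.49 for the other sensors, and after LPS both are -0.03. Ifnb1 has no point without LPS because its counts were at or under the floor.

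Genes with a pattern most like the 9 were ranked among 9076 protein-coding genes with a mean of at least 5 CPM, by Pearson's r of log2 CPM with the mean of the members' standardised log2 CPM over the 12 libraries. The libraries share the LPS effect, so these values are a description. The first 10 were Plekhg1 (r = 0.9996), Stat2 (r = 0.9995), Rnf213, Vcan, Ms4a4c, Ass1, Itgal, Ifit3, Enpp4 and Znfx1, the last 8 with r = 0.999. After the mean of each treatment was taken out, the first was Irf7 (r = 0.994), followed by Mx1 and Ms4a4c (r = 0.988 each), Ifit3, Ifi44 and Ifi206 (r = 0.986 each), Plekhg1 and Itgal (r = 0.985 each), and Tap1 and Stat2 (r = 0.983 each). Plekhg1, Stat2, Ms4a4c, Itgal and Ifit3 were in both sets. Their log2FC in KO UT ran from -0.37 for Tap1 to -1.77 for Vcan, a direction that their choice by likeness to the 9 fixed.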

How the data were processed

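The data were raw read counts per gene for 12 BMDM libraries. Per the labels and the methods of the study, the authors made the libraries with a stranded, globin-depleting total RNA kit, mapped reads to GRCm38 with HISAT2 2.1.0 and deposited the featureCounts 2.0.0 counts without normalization. How the counting used strand and multi-mapping reads is not given in the sources used here. Identifiers, with the version removed, were matched to GENCODE M21, which gave 48144 of 48526 genes a symbol.

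The main test was edgeR 4.0.16 (quasi-likelihood, TMM scaling, R 4.3.3). A filter by group (filterByExpr, count 10 and total 15 at the least) left 15523 genes that held 99.96% of counts. One model of group means over the 12 libraries had no covariates. P-values were two-sided and adjusted over all 15523 genes by the Benjamini-Hochberg method, and the interaction took the LPS response in KO minus that in WT. DESeq2 1.42.0, which the study used, was an alternative. The labels do not say which libraries come from separate animals, so p-values measure the spread between these libraries. The batch number of the labels equals the replicate number and so pairs libraries, but over 18 such pairs the correlation of deviations from group means ran from -0.0631 to 0.0373. Levels per kb used the union of exons, and log2 CPM a prior count of 2.

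The members and the lists of related genes were chosen with earlier results of these data known. Besides the 9 genes and Tnf, the text names from each list up to 4 genes of lowest adjusted p in a comparison, Mavs, Irf3, Irf7, Stat2, Irf9 and Ifnb1, the exceptions to a count, and the 10 genes most like the members by each of 2 measures. Some genes of these lists are not reported here and were left out of the list counts. Small structured RNAs were defined by gene type, and the settings that use them, after the data were seen.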

Additional observations from a re-analysis of the deposited data

Results flagged for a closer look

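The LPS response differed between KO and WT, by the edgeR interaction test with an adjusted p below 0.05, for all 9 genes, where 7.32% of all genes passed upward. With the structured RNA covariate 3 of 9 passed (Oas1g, Oas2 and Oasl1), where 0.535% of all genes passed upward in that fit, and Ifih1 turned to -0.10. In the main fit the difference in log2 fold change was 0.32 for Oas1a, 0.40 for Oas1g, 0.43 for Oas2, 0.87 for Oas3, 1.00 for Oasl1, 0.74 for Oasl2, 0.58 for Ifih1, 0.70 for Ddx58 and 0.56 for Dhx58. Among related genes it was 1.15 for Irf7, 1.05 for Ifit2, 0.91 for Ifit1, 0.74 for Ifit3, 0.67 for Zbp1, 0.59 for Stat2, 0.44 for Usp18, 0.43 for Isg15 and 0.24 for Irf9. Irf9 did not pass in 10 of 12 fits that left out 1 library or with protein-coding genes only (adjusted p by edgeR 0.0722), and with the structured RNA covariate Ifit1, Ifit2, Ifit3, Usp18 and Stat2 did not pass (0.19, 0.21, 0.30, 0.27 and 0.43, adjusted p by edgeR 0.614, 0.561, 0.382, 0.485 and 0.156). The difference was 0.40 for Abce1, 0.37 for Ywhae, 0.32 for Jak1, 0.29 for Ywhah and 0.25 for Zc3hav1, and -0.38 for Tnf. With 1 library left out Ywhah did not pass in 8 of 12 fits and Jak1 in 5 of 12, and with the covariate Zc3hav1 did not pass (0.04, adjusted p by edgeR 0.947). With the covariate Abce1, Ywhae, Ywhah, Jak1, Irf9 and Tnf did not pass either and their signs turned (-0.26, -0.26, -0.32, -0.35, -0.09 and 0.05, adjusted p by edgeR 0.646, 0.617, 0.458, 0.355, 0.893 and 0.948). The test for 1 outlying value within a group was not applied, since it needs more than 3 libraries.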

How the results depend on the processing

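No alternative changed the direction of a member in KO UT against WT UT or in LPS against UT, and all 9 rose with LPS in every fit. Leaving out 1 library at a time kept 9 of 9 lower in KO UT and 9 of 9 past the interaction threshold. The replicate block gave 9 of 9 in KO UT, 1 of 9 after LPS (Oas2) and 9 of 9 in the interaction, moved no member across the threshold, and among the named genes took Stat2 after LPS (adjusted p 0.0805), Irf9 and Ywhah in the interaction (0.0764 and 0.0646) out of significance. Upper-quartile scaling moved the median of all genes by -0.18 in both LPS comparisons.

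In KO against WT after LPS, the number of members with an adjusted p below 0.05 was 2 with upper-quartile scaling, DESeq2, a filter at a mean CPM of 1 and protein-coding genes only, 3 with the structured RNA covariate (added after seeing the data, where 4.55% of all genes fell), and 1 to 2 when a library was left out. Over all genes 2320 of 15523 passed in either direction with upper-quartile scaling and 2531 of 15523 with DESeq2. With the filter on mean CPM 2310 of 12433 did, and with protein-coding genes only 2105 of 12251. With a library left out the number ran from 1405 of 15886 to 3228 of 15864. The number called in KO UT was 2 with the covariate, where 117 of 15523 genes were called in either direction. In the interaction 3 members passed with the covariate, and the number called was 0 under the filter on mean CPM, with protein-coding genes only, with structured RNAs left out (also added after seeing the data) and with the covariate, and 0 to 1 when a library was left out, as without KO UT replicate 3, WT LPS replicate 3, KO LPS replicate 2 or KO LPS replicate 3.

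Log2 fold changes of KO against WT after LPS that turned sign lay near 0. Oas1g was 0.03 without WT LPS replicate 3 (range -0.08 to 0.03 over the libraries left out), 0.04 summed with Oas1a and 0.12 with the covariate. Oas3 was -0.05 and Ddx58 -0.08 with the covariate, and Ifih1 was 0.01 without WT LPS replicate 1 (range -0.16 to 0.01). Dhx58 was -0.01 with upper-quartile scaling, with the filter on mean CPM and without WT LPS replicate 3 (range -0.01 to 0.03), and -0.03 with protein-coding genes only and with the covariate. Irf9 was 0.00 with RLE scaling and DESeq2, 0.02 with no filter, and -0.04 to 0.05 over the libraries left out. With the covariate the interaction was -0.10 for Ifih1, -0.09 for Irf9, 0.05 for Tnf, -0.26 for Abce1 and Ywhae, -0.32 for Ywhah and -0.35 for Jak1, Mavs in KO UT was 0.07 and Abce1 under LPS in KO -0.10. Irf3 under LPS in KO was -0.01 with upper-quartile scaling. The cause of these changes was not tested. Per kb of longest transcript, Oasl2 was at 66.2 CPM in WT UT in place of 32.4. With 3 libraries per group the spread between libraries is known only roughly. Counting error is not negligible for Oasl1, the least counted of the 9, with 369, 351 and 380 counts in KO UT.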
